A study of Homo sapiens with 29 samples.

Results

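The intergenic crotonyl-lysine (Kcr) regions of HCT116 cells are those regions of the deposited anti-Kcr ChIP-seq table that are shorter than 10000 bp, overlap no gene of the deposited RNA-seq table and lie more than 2 kb from every gene start in it. They number 10644 of 49916 regions (21.3%). Position and length alone chose them from the table, and their read levels and changes were not used. The choice is still not free of read level. The processing notes name a peak caller, and the regions left out as 10000 bp or longer had a higher median density. HCT116 is a human colorectal carcinoma line of epithelial origin. The study combined siRNA against DAXX with crotonate, the salt form of a short-chain fatty acid from which cells can make crotonyl-CoA. Its groups were DAXX siRNA (35 nM) with 10 mM crotonate, non-targeting siRNA (25 nM) with 10 mM crotonate, DAXX siRNA without crotonate, and non-targeting siRNA without crotonate. Crotonate was given for 18 h by the series text and for 48 h by the sample protocols. RNA-seq had 4 libraries in each group, and anti-Kcr ChIP-seq had 2 libraries in each crotonate group and 4 in each group without it. All ChIP libraries used a pan-Kcr antibody, which binds crotonylated lysine on any protein. There was 1 input library, labelled as DAXX siRNA cells without crotonate. The siRNA doses differed between the arms, and no label states whether replicates were separate cultures, so p-values measure the spread between these samples only.

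Crotonylation is an acyl mark on lysine that histone acetyltransferases such as p300 can write from crotonyl-CoA and that class I histone deacetylases and some sirtuins remove. On histones it is known from active promoters and also from distal sites, and in the colon it is of interest because gut bacteria make short-chain fatty acids that inhibit deacetylases. DAXX, together with ATRX, places the replacement histone H3.3 at repeats, telomeres and other silent chromatin, much of which lies outside genes. Distal regulatory elements such as enhancers also lie outside genes, and many of them start unstable non-coding transcripts.

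Some of the intergenic regions hold RefSeq transcription starts that the deposited gene table does not list. RefSeq (GRCh38.p14) places the whole 300-base promoter window of a gene, from 250 bases before to 50 after its start, inside a member in 235 cases, of which 219 belong to lncRNA genes and 16 to protein-coding genes. The 3 windows below are shown because they stand in members with high anti-Kcr read density, the first pair at starts of coding genes that the table places elsewhere and the last at a lncRNA in a stretch crowded with members. Each is written 5′ to 3′ on the gene's strand, with CpG dinucleotides in capitals.
SIRT4 (chr12:120291939-120292238, plus strand): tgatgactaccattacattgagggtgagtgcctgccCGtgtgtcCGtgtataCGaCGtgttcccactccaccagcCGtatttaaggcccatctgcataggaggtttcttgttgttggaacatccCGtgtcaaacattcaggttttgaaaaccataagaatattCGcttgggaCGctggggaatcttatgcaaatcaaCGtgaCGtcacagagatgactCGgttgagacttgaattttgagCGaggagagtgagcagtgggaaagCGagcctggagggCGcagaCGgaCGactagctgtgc
LARP1 (chr5:154682729-154683028, plus strand): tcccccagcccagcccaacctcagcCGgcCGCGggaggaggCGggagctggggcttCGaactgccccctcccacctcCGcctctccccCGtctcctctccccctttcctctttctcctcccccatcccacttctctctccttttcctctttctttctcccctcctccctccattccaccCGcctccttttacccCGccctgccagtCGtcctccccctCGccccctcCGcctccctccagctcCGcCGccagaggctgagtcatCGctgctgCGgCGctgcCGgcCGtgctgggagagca
LOC124901788 (chr7:155951035-155951334, plus strand): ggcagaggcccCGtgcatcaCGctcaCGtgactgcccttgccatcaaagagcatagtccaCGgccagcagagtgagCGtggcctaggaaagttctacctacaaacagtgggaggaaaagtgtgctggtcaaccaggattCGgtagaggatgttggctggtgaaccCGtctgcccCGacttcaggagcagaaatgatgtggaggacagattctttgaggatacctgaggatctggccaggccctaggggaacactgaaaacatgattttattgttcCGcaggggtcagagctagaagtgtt
The SIRT4 window, which belongs to a mitochondrial sirtuin, holds 16 CpG dinucleotides at 50.3% GC, and the LARP1 window, of an RNA-binding regulator of translation, holds 19 at 69% GC. The LOC124901788 window holds 9 at 53.7% GC.

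The member over the SIRT4 window (chr12:120290551-120295050) had 25.2 and 18.0 scaled reads per kb in DAXX siRNA cells with crotonate, 22.4 and 21.4 in non-targeting cells with crotonate, 24.5, 25.6 and 24.9 in DAXX siRNA cells, and 29.4, 29.7 and 25.1 in non-targeting cells, against 10.6 in input. Scaled reads are the deposited values taken off the log2 scale, and the density is these divided by length. The member over the LOC124901788 window (chr7:155949901-155957850) had 28.1 and 23.6, then 23.4 and 22.5 with crotonate, and 31.4, 32.5 and 27.3, then 29.4, 28.1 and 29.4 without it, in the same order of groups, against 10.7 in input. Every anti-Kcr sample of both members, which were chosen for high density, lay above the input. In single samples, 96.2% to 99.5% of all members did. At neither member did all samples with crotonate lie apart from those without. The first had 25.2 with crotonate and 24.5 without, and the second 28.1 and 27.3.

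Over the 235 windows in members, CpG dinucleotides were sparse. Their median ratio of observed to expected CpG was 0.349, against 0.835 for 9876 windows in regions at gene starts and 0.579 for all 35116 windows. The share with a ratio above 0.6, the usual mark of a CpG island, was 17.9% in members, against 80.6% at gene starts and 48.8% of all windows. Of the windows printed above, SIRT4 (0.86) and LARP1 (0.67) exceeded it and LOC124901788 (0.43) did not. Since 219 of the 235 windows belong to lncRNA genes, these contrasts and those below mix kind of gene with position. The part of each was not tested. Letters of transcription factor motifs were looked up on both strands of the same windows. The AP-1 letters TGANTCA, bound by FOS and JUN proteins, stood in 33 windows of members (14.0%), against 4.78% at gene starts and 7.71% of all. The TEAD letters GGAATG stood in 19.1%, against 11% at gene starts and 14.0% of all. The ETS letters CCGGAAGT, common in CpG-rich promoters, stood in 2.55%, against 8.07% and 4.14%. The core of the CTCF motif, AGGNGGC, stood in 39.1%, against 46.5% and 35.9%, the GATA letters AGATAA in 8.09%, against 4.64% and 10.3%, and the TCF/LEF letters ATCAAAG in 4.26%, against 1.17% and 2.62%. The HNF4 letters CAAAGTCCA stood in 0 windows of members, against 0.263% at gene starts and 0.384% of all, and the telomere repeat TTAGGGTTA in 0, against 0.0810% and 0.0626%, shares too low for 235 windows to differ visibly. The motifs are counted without regard to overlap with one another, and a match describes the letters only. A genome of this build was not used here, so these shares cover the few members with a listed window and not the other intergenic regions.

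The members also overlap 14 RefSeq microRNA hairpins, in 11 regions. MIR1275 and MIR4539 overlap their regions only in part. Mature sequences of 4 of the others follow, the first 3 from the members of highest anti-Kcr density and the last from the member of lowest density, with the seed (bases 2 to 8) in capitals.
hsa-miR-3649: aGGGACCUgagugucuaag
hsa-miR-4456: cCUGGUGGcuuccuuuu
hsa-miR-4462: uGACACGGaggguggcuugggaa
hsa-miR-4443: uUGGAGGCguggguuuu
No seed was shared among these 4. The members around them had 20.4, 20.1, 20.1 and 15.7 scaled reads per kb in the order printed and stood above input, by 0.86, 1.04, 0.80 and 0.66 on the log2 scale. The member chr14:105857551-105860550, 11.9 kb from the start of IGHD, the immunoglobulin delta constant gene, overlapped 4 of the 14 hairpins (hsa-miR-4539, hsa-miR-4507, hsa-miR-4538 and hsa-miR-4537) and had 17.4 reads per kb over an input of 12.3. MicroRNA levels were not analysed here.

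Deposited annotation was thin over the members. A gene feature of the ChIP table overlapped 860 of them (8.08%), and 760 of these features were described as pseudogenes. RefSeq places a gene over 2537 (23.8%), among them 1410 over a lncRNA, 667 over a pseudogene and 483 over a protein-coding gene. Neither source has a gene over 7971 members (74.9%). Members with a RefSeq promoter window were longer, with a median of 2850 bp against 1350 bp for the 8095 with neither a RefSeq gene nor a window, while their density was close (18.7 against 18.0 reads per kb) and their median anti-Kcr over input was 0.85 against 0.90 on the log2 scale.

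The members cover 20.8 Mb, which is 13.3% of the bases in all regions. Their median length was 1350 bp, with quartiles of 750 and 2550 bp, against a median of 1500 bp inside genes and 2700 bp at gene starts. All started on a 150-bp grid and had a length that is a multiple of 150 bp, from 300 to 9900 bp, which is the resolution of every position given here. The nearest gene start lay 18862 bp away at the median and 2729613 bp away at most, and the nearest gene span 11771 bp away at the median. Among the farthest were chr3:104390851-104391450 and chr3:104436751-104438400, whose nearest start, at 975.5 and 928.5 kb, is that of ALCAM, a cell adhesion molecule. Of the 5276 genes that are nearest to a member, 2712 passed the RNA minimum, an RPM (reads scaled to a fixed library size) of 0.25 in at least 4 libraries.

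Members occurred in groups. Joined across gaps of up to about 12 kb, they formed 6033 clusters, in which 3732 members (35.1%) stood alone and 1923 (18.1%) shared 310 clusters of 5 or more. The cluster with the most bases in members spans chr4:1488151-1573650, near AC147067.2, where 11 members cover 51.0 of 85.5 kb. Near AL691482.3 on chromosome 1, 12 members cover 46.65 of 67.2 kb, and 15 members near AC062015.1 on chromosome 2 form a cluster that shares the highest count. By nearest start, AC062015.1 had 31 members, AC021218.1 27, the LIM-domain gene LMO1 17, the phosphatase gene PTPN1 15, the Krüppel-like factor gene KLF4 14 and the secretogranin gene SCG2 14. In all, 1078 members (10.1%) abut another region, so some are pieces of a longer stretch.

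Anti-Kcr density in the members was close to uniform. The median was 18.1 scaled reads per kb, and the 10th and 90th percentiles were 16.3 and 21.5. Regions inside genes had a median of 18.0, regions at gene starts 19.8 with a 90th percentile of 24.9, and regions of 10000 bp or longer 22.1. Input in the members had a median of 9.88 reads per kb, against 9.93 inside genes, 10.8 at gene starts and 12.2 in the long regions. The submitters' processing notes name a peak caller, so a low limit on density may be built into every class; how regions were combined over libraries is not given in the sources used here. The median member had 19 reads in an anti-Kcr library and 12 in the input, and 42.1% had fewer than 10 input reads.

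**Figure D1:**
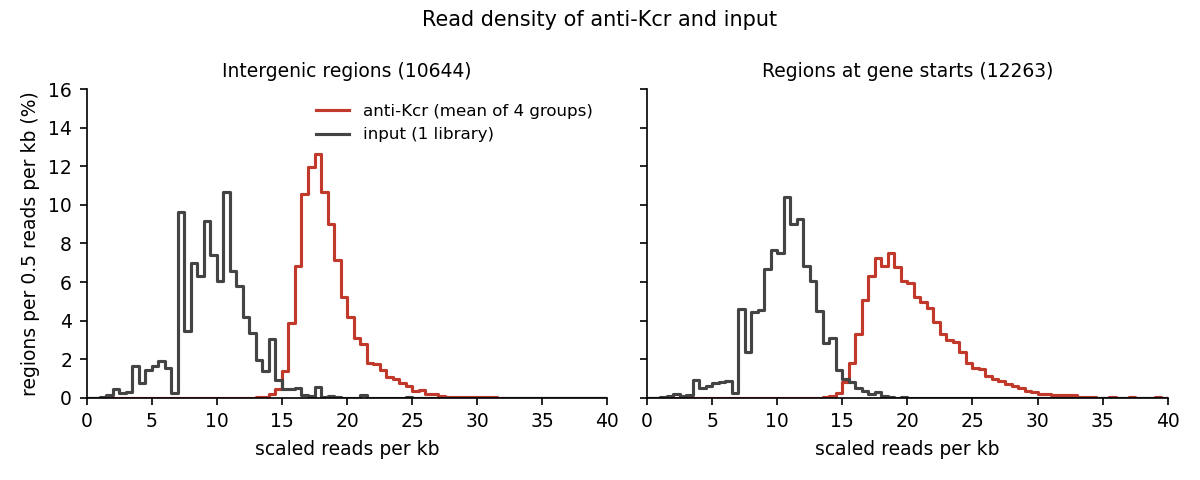
Scaled reads per kb (x axis) against the percentage of regions in each step of 0.5 reads per kb (y axis), for intergenic regions (left) and regions at gene starts (right), with anti-Kcr as the mean of the 4 groups and input as 1 library. The anti-Kcr curve of intergenic regions is narrow around its median of 18.1 and that of gene starts has a longer upper side (90th percentile 24.9).

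Over input, the classes had similar medians. The median log2 difference, anti-Kcr minus input, was 0.90 in members, 0.87 inside genes, 0.91 at gene starts and 0.83 in the long regions. It was at or below 0 in 10 members and at 2 or more in 437 (4.11%), against 3.62% of regions inside genes, 2.23% at gene starts and 3.2% of all regions. Restricted to regions with 10 or more input reads, the medians were 0.79 in 6163 members, 0.77 inside genes and 0.88 at gene starts. Short members had the largest and most variable differences, with a median of 1.17 (SD 0.80) at 300 bp against 0.75 (SD 0.28) from 2400 to 4800 bp. At that longer size, regions at gene starts had 0.90.

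By distance to a gene start, the level varied over a small range. Members 2 to 5 kb from a start had a median of 0.88 over input and 17.9 reads per kb, and those over 100 kb away had 0.96 and 18.5, with shorter regions there (median 900 against 1350 bp). Members whose nearest start belonged to a gene under the RNA minimum had 0.90 over input, and those next to a gene that passed it also had 0.90. Genes that passed the minimum were nearest to 50.8% of members, 59.7% of regions inside genes and 71.7% of regions at gene starts. Just inside the 2-kb limit, 469 members at 2 to 3 kb had a median of 0.88, and just outside it 482 regions at 1 to 2 kb, also over no gene, had 0.93. At the length limit, 141 members in the last 2 kb of length below it had 0.78 and 60 excluded regions in the 2 kb above it had 0.79.

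In single samples, median anti-Kcr over input of members was 0.93 and 0.82 in DAXX siRNA cells with crotonate, 0.90 and 0.80 in non-targeting cells with crotonate, 1.01, 0.99 and 0.90 in DAXX siRNA cells, and 1.10, 0.95 and 0.91 in non-targeting cells. The crotonate samples thus overlapped those without crotonate. The difference of the medians, members minus gene starts, was -0.04 and 0.13 in DAXX siRNA cells with crotonate and 0.05 and 0.12 in non-targeting cells with crotonate. Without crotonate it was -0.09, -0.19 and -0.02 in DAXX siRNA cells and -0.10, -0.05 and -0.03 in non-targeting cells. Members thus stood above gene starts in 3 of 4 crotonate samples and below them in every sample without crotonate. The exception, with -0.04, was DAXX siRNA replicate 2 with crotonate, the first listed, since the labels number the crotonate samples 2 and 3. It lay inside the range without crotonate. Libraries 1A and 1B of each siRNA differed by about the sampling noise (chi-square over degrees of freedom 1.01 and 1.01, against 1.04 to 1.38 for other pairs) and were counted as 1 sample, leaving 10 anti-Kcr samples.

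**Figure D2:**
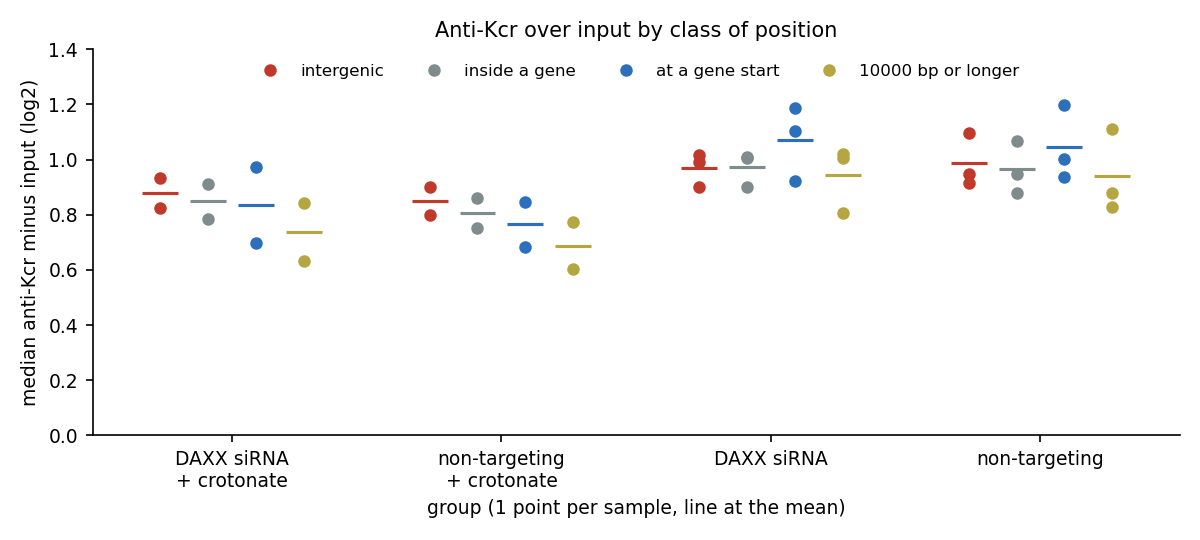
Median log2 difference of anti-Kcr minus input over the regions of each class of position (y axis) in the 4 groups (x axis), with 1 point per sample and a line at the group mean. Red points, the intergenic regions, range from 0.80 to 1.10, and blue points, gene starts, from 0.68 to 1.2.

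The members of highest density and of highest ratio were different regions. The densest was chr1:144102901-144105000, 131 kb from FAM72C, with 206 and 198 scaled reads in DAXX siRNA cells with crotonate, 252 and 183 in non-targeting cells with crotonate, 210, 184 and 187 in DAXX siRNA cells, and 184, 180 and 185 in non-targeting cells. Its input held 87.9, the highest input density among members (41.8 per kb). The next was chr11:69947551-69952650 near AP007216.2, with 273 and 169, then 238 and 154 with crotonate, and 239, 299 and 195, then 280, 228 and 206 without it, against an input of 60.3. How reads that fit several places were counted is not given in the sources used here. By ratio, the top 5 members all had 0 or 1 input reads. At chr2:62413951-62414850 the mean of 16.2 scaled reads stood over 1 input read, a ratio whose 95% Poisson interval, for counting error in the input only, runs from 2.74 to 604. Among members with 10 or more input reads, chosen after the values were seen, the largest differences were 2.27 at chr2:70596001-70597950 near AC005234.2, 2.19 at chrX:40012501-40015350 near AC092198.1 and 2.16 at chr7:156094651-156097350, one of the 27 members near AC021218.1.

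Chromosome X stood apart in the ratio but not in density. Its 89 members had a median of 1.42 over input, against 0.90 for 10555 members on autosomes, and 28.1% of them reached 2 or more, against 3.90%. Anti-Kcr density was 18.9 reads per kb on X and 18.1 on autosomes, while input density was 7.06 on X and 9.88 on autosomes. Regions inside genes (1.4 over input on X, 0.87 on autosomes) and at gene starts (1.46 on X, 0.91 on autosomes) showed the same gap. At the other end, members on chromosomes 8 and 17 had 0.77 and 0.79 over input, with input densities of 11 and 10.6 per kb. The part of input density in these ratios was not tested. The share of regions that were intergenic ran from 13.9% on chromosome 16 to 26.6% on chromosome 6.

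**Figure D3:**
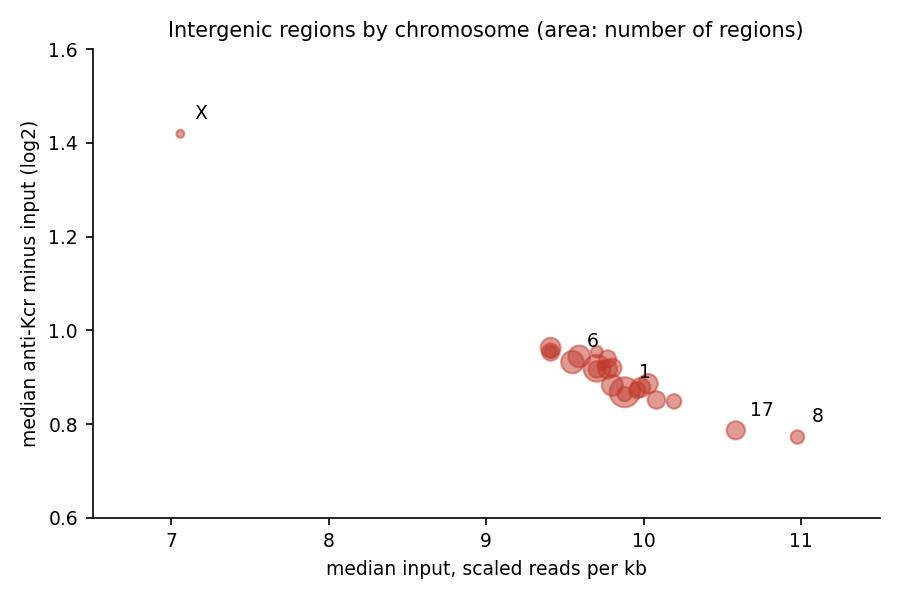
Median input density of the intergenic regions of each chromosome (x axis, scaled reads per kb) against their median log2 difference of anti-Kcr minus input (y axis), with the area of a point in proportion to the number of regions and 5 chromosomes named. Chromosome X lies at 7.06 and 1.42, away from the other 22 chromosomes.

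By RNA, most epithelial markers were expressed and DAXX was lower with its siRNA. Such markers cannot show which line the cells were. Of 8 epithelial markers 7 passed the RNA minimum, led by KRT8, while 1 of 5 leukocyte, 2 of 6 fibroblast and 2 of 3 endothelial markers did. Summed endothelial markers were 0.758 to 1.42 RPM in DAXX siRNA cells and 0.832 to 1.57 RPM in non-targeting cells with crotonate, against 0.302 to 0.672 and 0.505 to 0.843 RPM without it. Summed epithelial markers were 4259 to 5090 RPM in DAXX siRNA cells and 3915 to 4139 RPM in non-targeting cells with crotonate, against 4669 to 5088 and 4153 to 4868 RPM without it. Summed fibroblast markers were 19.47 to 27.7 and 18.2 to 23.3 RPM with crotonate, against 12.2 to 19.46 and 11.46 to 21.5 RPM without it, in the same order. Endothelial and fibroblast sums in DAXX siRNA cells and epithelial sums in non-targeting cells did not overlap between crotonate and none. The part of marker levels in the RNA results was not tested. DAXX RNA averaged 19.3 ± 4.67 RPM in DAXX siRNA cells against 100 ± 3.38 in non-targeting cells with crotonate, and 24.6 ± 2.06 against 103 ± 1.6 without it (SD, n = 4 each). Anti-Kcr libraries held 2.23 to 3.64 M reads in regions (M for mega, as in Mb) and the input 1.72 M reads.

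With crotonate, most intergenic regions had lower anti-Kcr values, by less than the SE of a typical region. The crotonate groups hold replicates 2 and 3 only, while the groups without crotonate also hold replicate 1. Replicate 1 had the highest median over input of its group, 1.01 in DAXX siRNA cells and 1.10 in non-targeting cells. The part of replicate number in the change was not tested. Fewer cells with the mark and less mark per cell cannot be told apart in bulk samples. The fitted log2 change had a median of -0.10 over members in DAXX siRNA cells and -0.13 in non-targeting cells, and it was negative for 63.8% and 65.8% of members. All regions had medians of -0.16 and -0.19, and regions at gene starts -0.24 and -0.29. In a fit with each library centred on its median region, the members' medians were 0.03 and 0.05 and those of all regions -0.02 and -0.02, so the sign for members depends on the scaling. The deposited scaling puts the crotonate samples at 2.84 to 3.36 M scaled reads in regions and the libraries without crotonate at 3.24 to 3.90 M, and the part of this in the change was not tested.

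**Figure D4:**
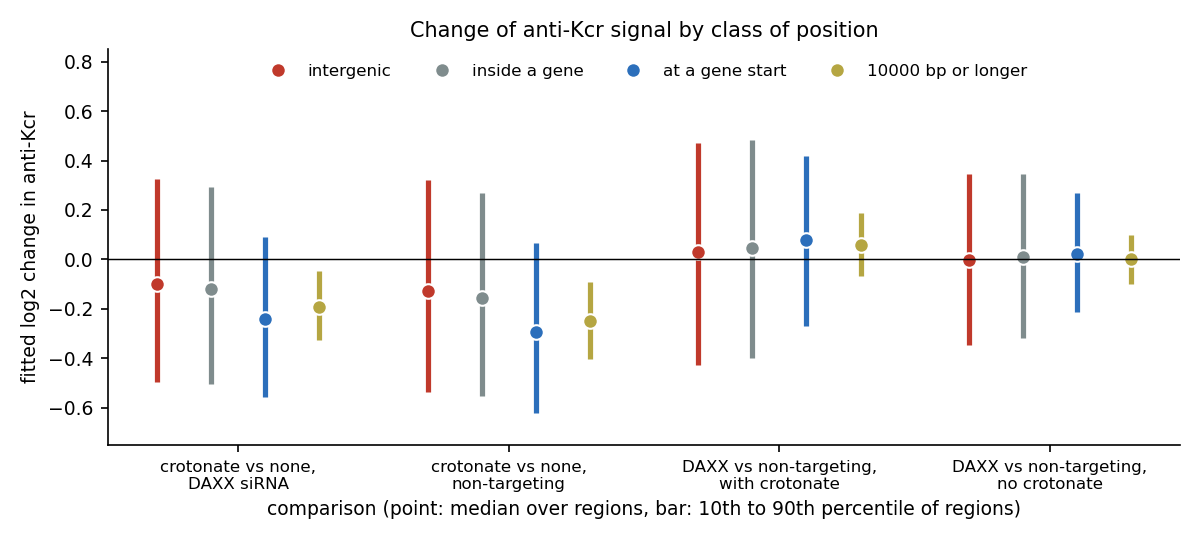
Fitted log2 change in anti-Kcr (y axis) in 4 comparisons (x axis), with the median over regions as a point and the 10th to 90th percentile of regions as a bar, for the 4 classes of position. With crotonate the medians of intergenic regions (-0.10 and -0.13) lie above those of gene starts (-0.24 and -0.29).

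No member was called in either arm at a Benjamini-Hochberg adjusted p under 0.05 in limma, and no region of any class was (background 0% of 49916 in both). limma-voom on the recovered reads also called 0 members in both arms. Of 19 alternative settings, 14 kept this result in non-targeting cells and 17 in DAXX siRNA cells, while the others called some members. At an unadjusted p under 0.05, 602 members (5.66%) passed in DAXX siRNA cells and 820 (7.70%) in non-targeting cells, against a background of 8.5% and 13.3% of all regions. Of these, 511 and 736 were lower with crotonate, where the backgrounds were 7.92% and 12.8%. The members' shares were thus below those of all regions in both arms. The median SE of a member's change was 0.30, against 0.23 at gene starts.

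Averaged over both siRNA arms, 2 members were called, both lower, among 34 called regions (0.0681%), all of them lower. The first, chr11:10930501-10932300, lies 31.1 kb from AC069360.1. It had 22.5 and 33.9 scaled reads in DAXX siRNA cells with crotonate, 37.7 and 32.9 in non-targeting cells with crotonate, 48.8, 64.6 and 56.7 in DAXX siRNA cells, and 54.3, 57.2 and 47.8 in non-targeting cells, against 22.2 in input. Every crotonate sample was below every sample without it (log2 change -0.81 ± 0.17 SE, limma adjusted p = 0.0488). The second, chr1:168391501-168394350, lies 12.9 kb from AL022100.2. It had 35.9 and 46.9, then 29.6 and 32.9 with crotonate, and 68.2, 74.4 and 47.4, then 62.4, 70.8 and 54.5 without it, against an input of 34.9. Here too the samples did not overlap, and both non-targeting samples with crotonate were below the input (log2 change -0.80 ± 0.16, limma adjusted p = 0.0488). limma-voom called neither (0 members, smallest adjusted p = 0.051), a fit centred on the median region called 0 members, and keeping 1A and 1B apart called 249. A replicate block also called more members than the main fit, with counts in the last paragraph of this report. No member (0) was called without DAXX siRNA replicate 1 or 2, without DAXX siRNA replicate 3 with crotonate, or without any of the 3 non-targeting samples lacking crotonate, while 337 were called without DAXX siRNA replicate 2 with crotonate, 97 without DAXX siRNA replicate 3, and 14 and 4 without the non-targeting crotonate samples 2 and 3.

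**Figure D5:**
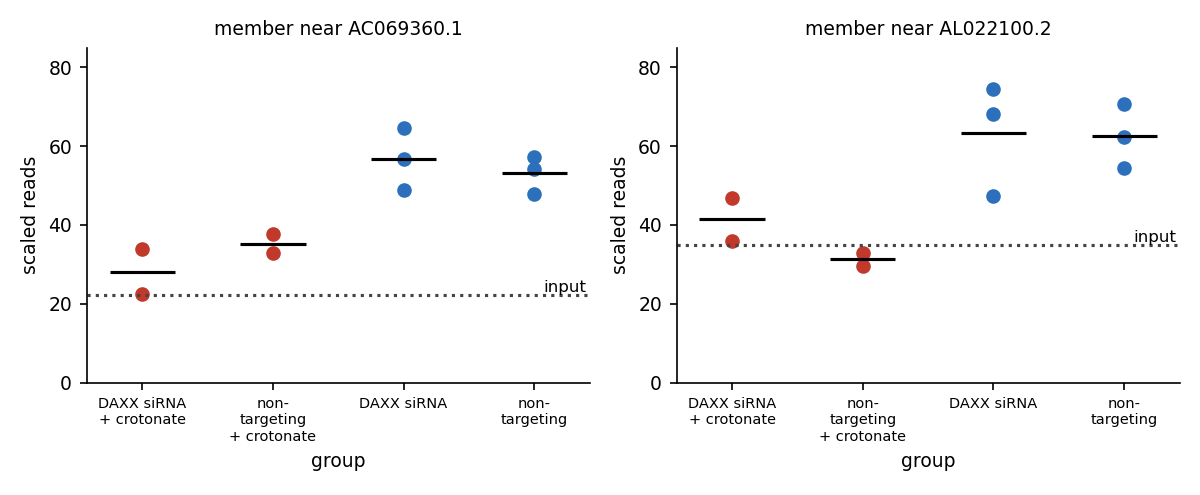
Scaled reads (y axis) in the 4 groups (x axis) for the 2 called members, near AC069360.1 (left) and AL022100.2 (right), with 1 point per sample, a line at the group mean and the input library dotted. The 4 crotonate samples run from 22.5 to 37.7 on the left and from 29.6 to 46.9 on the right, below the 6 samples without crotonate.

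At an unadjusted p under 0.05 in the same averaged comparison, 1086 members (10.2%) passed, 996 of them lower, against backgrounds of 19.8% and 19.4%. All 4 crotonate samples were below all 6 samples without it at 217 members (2.04%), against a background of 3.94% and 7.30% at gene starts. They were above all 6 at 28 members (0.263%), against a background of 0.136% and 0.0408% at gene starts. The members' share was below that of all regions in the lower direction and above it in the higher one, by count.

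Members with more reads showed the lower values more often. In the averaged comparison the median change was -0.04 in 1931 members with a mean under 10 reads per library, -0.08 from 10 to 20 reads, -0.12 from 20 to 50, and -0.16 in 1813 members with 50 or more, of which 88.2% were negative. Gene starts of the same depth had -0.18, -0.27 and -0.29 from 10 reads up, lower than the members at each depth. By distance the median ran from -0.14 at 2 to 5 kb to -0.09 beyond 100 kb. It was -0.14 next to genes that passed the RNA minimum and -0.09 next to genes that did not. By length it ran from -0.06 under 1000 bp to -0.16 from 5000 to 10000 bp, and length and read number were not separated. All these medians rest on the deposited scaling.

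The members with the smallest p in each arm were mostly low in reads. In DAXX siRNA cells, chr10:52447951-52448400 near PRKG1-AS1 had 3.4 and 1.3 scaled reads with crotonate against 15.5, 14.0 and 10.5 without it, with no overlap (log2 change -2.65 ± 0.52, limma adjusted p = 0.317). In non-targeting cells, chr9:92882701-92883600, 4.66 kb from the zinc finger gene ZNF484, had 10.8 and 4.5 with crotonate against 19.1, 27.2 and 21.3 without it (log2 change -1.67 ± 0.37, limma adjusted p = 0.169). A member with more reads was chr3:16058551-16062450 near AC090946.1, with 53.8 and 47.6 against 98.0, 98.1 and 81.1 (log2 change -0.86 ± 0.20, limma adjusted p = 0.185). Among members higher with crotonate in non-targeting cells was chr16:3903301-3904050, 22.6 kb from CREBBP, which encodes a histone acetyltransferase, with 20.2 and 26.1 against 12.4, 10.9 and 8.0 (log2 change 1.16 ± 0.37, limma adjusted p = 0.246). None of these passed the threshold.

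DAXX siRNA left the intergenic regions with no called change. The median log2 change of members was 0.03 with crotonate (-0.01 with libraries centred on the median region) and 0.00 without it, beside 0.05 and 0.01 for all regions, and 0.08 and 0.02 at gene starts. No member and no region was called in either comparison or in their mean (limma, background 0% in each of the 3). At an unadjusted p under 0.05, 481 members (4.52%) passed with crotonate, 322 (3.03%) without it and 416 (3.91%) in the mean, against backgrounds of 4.17%, 2.38% and 3.64%.

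With crotonate, chr14:103258201-103258650, 50.1 kb from AL161669.3, had 2.2 and 2.6 scaled reads in DAXX siRNA cells against 16.2 and 17 in non-targeting cells (log2 change -2.78 ± 0.54, limma adjusted p = 0.693). Without crotonate its values were 9.3, 8.4 and 9.2 against 10.7, 15 and 8.0, which overlap. Without crotonate, chr13:73326001-73327350 near AL162376.1 had 29.2, 32.3 and 30.3 in DAXX siRNA cells against 23.2, 10.9 and 5.3 in non-targeting cells (log2 change 1.47 ± 0.35, limma adjusted p = 1).

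The effect of crotonate was not called as different between the siRNA arms for any member or region (limma interaction, background 0%), and 371 members (3.49%) had an unadjusted p under 0.05, against a background of 3.09%. The median of the interaction over members was 0.03. The member near ZNF484 had the smallest p among those with a positive interaction: in DAXX siRNA cells it had 20.2 and 23.5 scaled reads with crotonate against 16.1, 18.3 and 13.2 without it (interaction 2.15 ± 0.52 log2, limma adjusted p = 1).

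A minority of the tested genes next to members were called in RNA with crotonate, most of them higher; the difference of their share from the background was not tested. Of the 2712 tested neighbours, 575 were called in DAXX siRNA cells, 510 higher and 65 lower, which is 21.2% against a background of 15.4% of 17973 genes. In non-targeting cells 565 were called, 494 higher and 71 lower, which is 20.8% against a background of 15.4%. Among the 15261 tested genes that are nearest to no member, 14.4% and 14.5% were called. The tested neighbours rose with crotonate in 88.7% and 87.4% of their calls, beside 84.4% and 84.8% over all called genes. The RNA minimum admits genes that reach it only with crotonate libraries, which favours higher calls in these shares. With DAXX siRNA, 44 neighbours (1.62%) were called with crotonate and 17 (0.627%) without it, against backgrounds of 1.06% and 0.406%. Being nearest is a fact of position and not of control.

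Anti-Kcr at the members did not follow the direction of their neighbours' RNA closely. In DAXX siRNA cells the median crotonate change of anti-Kcr was -0.08 in 1070 members next to a gene called higher, -0.22 in 138 next to a gene called lower and -0.13 in 4202 next to a tested gene that was not called. In non-targeting cells these medians were -0.14 in 1047, -0.23 in 147 and -0.16 in 4216 members. The quartiles of the first 2 sets overlapped in both arms, from -0.28 to 0.10 and from -0.38 to 0.01 in DAXX siRNA cells. Across 2712 genes, Pearson's r between the mean anti-Kcr change of a gene's members and its RNA change was 0.094 in DAXX siRNA cells and 0.048 in non-targeting cells. Genes are not independent replicates, and members of a gene share libraries.

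Of the named neighbours lower with crotonate, CAV1 (ENSG00000105974, chromosome 7, 116525001 to 116561184, plus strand), the coat protein of caveolae, was the most abundant. It had 275, 233, 253 and 243 RPM in DAXX siRNA cells with crotonate against 475, 433, 453 and 411 without it, and 236, 227, 236 and 224 against 398, 367, 448 and 426 in non-targeting cells. The groups did not overlap in either arm (log2 change -0.82 ± 0.07 in both, limma adjusted p = 4e-07 and 3.2e-07). Its member, chr7:116510701-116515050, lies 9.95 kb before the start and had 114 and 74.3 scaled reads with crotonate against 128, 149 and 100 without it in DAXX siRNA cells, and 110 and 61.2 against 129, 99.4 and 98.3 in non-targeting cells. Those groups overlapped, and the change was not called (log2 change -0.43 and -0.39).

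IRS1, the insulin receptor substrate adaptor (ENSG00000169047, chromosome 2, 226731317 to 226799759, minus strand), had 86.0, 77.2, 68.6 and 89.6 RPM with crotonate against 113, 121, 119 and 144 without it in DAXX siRNA cells, and 66.6, 80.2, 76.1 and 70.1 against 119, 151, 125 and 123 in non-targeting cells. RNA thus fell in both arms (log2 change -0.63 ± 0.10 and -0.82 ± 0.10, limma adjusted p = 0.00018 and 1e-05). Its 7 members lie 155 to 256 kb from the start. At the member chr2:226617901-226623450, anti-Kcr was 91.0 and 91.2 scaled reads with crotonate against 118, 145 and 92.2 without it in DAXX siRNA cells, and 78.1 and 76.0 against 143, 108 and 98.3 in non-targeting cells. Both pairs of groups stood apart, in DAXX siRNA cells only by 91.2 against 92.2, and neither change was called (log2 change -0.35 and -0.58, limma adjusted p = 0.62 and 0.26). The share of all regions that stand apart in a single arm was not counted. Over the 7 members the mean log2 change was -0.55 in DAXX siRNA cells and -0.36 in non-targeting cells.

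RNA of HTR7 (a serotonin receptor), KRT7 (a simple-epithelium keratin) and LCN2 (an iron-scavenging lipocalin) fell as well. HTR7 had 27.4, 24.7, 23.1 and 24.8 RPM with crotonate against 37.9, 37.6, 37.5 and 38.4 without it in DAXX siRNA cells, and LCN2 had 0.709, 1.30, 0.968 and 1.34 against 3.07, 3.14, 2.21 and 2.5. Both sets stood apart, and both genes were called in both arms (log2 change -0.60 and -1.37 in DAXX siRNA cells, limma adjusted p = 1.6e-05 and 8.5e-05). Anti-Kcr at their members, 3.26 and 6.02 kb from the starts, had log2 changes of -0.41 and 0.01 in DAXX siRNA cells and -0.46 and -0.29 in non-targeting cells, none called. The member next to KRT7 had 0.01 and 0.18.

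Named neighbours higher with crotonate were mostly near the lower limit of RNA detection. All of those given here passed the RNA minimum only with their crotonate libraries counted, so passing it already favoured a rise. SNAI2 (ENSG00000019549, chromosome 8, 48917598 to 48921740, minus strand), a repressor known from epithelial-mesenchymal transition, had 0.310, 0.930, 0.653 and 0.412 RPM with crotonate against 0.0254, 0.0253, 0.142 and 0.182 without it in DAXX siRNA cells, and 1.5, 0.803, 0.998 and 0.899 against 0.204, 0.158, 0.294 and 0.0733 in non-targeting cells. SNAI2 stood higher with crotonate in both arms with no overlap (log2 change 3.05 ± 0.63 and 2.65 ± 0.63, limma adjusted p = 0.0021 and 0.006). Because of how it passed the minimum, these values are no separate support for a rise. Its member, chr8:48895951-48898200, lies 23.5 kb away and had 46.1 and 43.0 scaled reads with crotonate against 33.7, 40.7 and 36.9 without it in DAXX siRNA cells, and 48.5 and 43.1 against 33.7, 34.1 and 31.9 in non-targeting cells. Here the anti-Kcr samples also stood apart in both arms, in DAXX siRNA cells by 43.0 against 40.7. The change was not called (log2 change 0.27 and 0.46, limma adjusted p = 0.74 and 0.39), and the share of all regions that stand apart in a single arm was not counted. Also named higher in both arms were C2CD4A and PRR16, with log2 changes of 3.28 to 3.78, and PRR20G, which had 1 read or 0 in each DAXX siRNA library without crotonate and gets no fold. The fits take a library with 0 reads as 0.9 read, so the changes are not bounds. ALPL, the tissue-nonspecific alkaline phosphatase, AOC1, a diamine oxidase, and P2RY6, a UDP receptor, were named from DAXX siRNA cells. AC010624.2, the chemokine receptor gene CXCR1, PRSS56 and the phosphatase gene PTPN7 were named from non-targeting cells. The arm of naming reflects rank and not a response of that arm only. ALPL was also called in non-targeting cells (log2 change 2.54, limma adjusted p = 0.018) and PRSS56 in DAXX siRNA cells (2.16, limma adjusted p = 0.042). For the interaction in RNA, 0 of 17973 genes were called. Anti-Kcr at the members of these 7 genes had mean log2 changes from -0.45 to 0.0048 in DAXX siRNA cells and from -0.30 to -0.07 in non-targeting cells, and none was called.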

How the data were processed

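Anti-Kcr ChIP-seq, input and RNA-seq values were deposited by the authors as log2 values on GRCh38, for regions and for genes. Per the submitters' processing notes, ChIP reads passed Trim Galore 0.6.5, cutadapt 2.3, Bowtie2 and MACS, and RNA reads Trim Galore 0.6.2, cutadapt 2.3 and HISAT2 2.2.1. Each deposited ChIP value came out as a whole read times a factor per library (100% of values within 0.01), with 0 reads listed as 0.9 read. Deposited RNA values are log2 RPM.

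Members were found from the coordinates in both tables. Libraries 1A and 1B of each siRNA were averaged. Changes were fitted with limma 3.58.1 (R 4.3.3, trended prior) on the deposited log2 values over all 49916 regions, or over 17973 genes with at least 0.25 RPM in 4 libraries, with all groups in 1 fit and Benjamini-Hochberg adjustment over the whole table. The fit was tested on simulated data, with changes placed only in regions at or above the median read count. The median member had fewer reads than the median region, so this test does not cover such members. Called means an adjusted p under 0.05, and tests are two-sided. Poisson intervals (95%) cover counting error only. The planned scan of whole regions for sequence features was not run, since no genome was used here. The RefSeq windows were chosen after the data were seen.

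The members, gene lists and settings were chosen with earlier results of these data known. Named were called members, or, with no call, the 3 lowest p in each direction, the extremes of level, ratio, input and distance, and up to 8 called neighbours each way per crotonate comparison, of which some are not reported here. No label gives a batch. Alternatives were limma-voom on recovered reads, other scalings, filters and member rules, 1A and 1B kept apart, a replicate block, and each library left out. No label states that replicate numbers pair the samples, and the deviations of same-numbered samples were weakly correlated. That correlation cannot show a shift of a whole library.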

Additional observations from a re-analysis of the deposited data

Results flagged for a closer look

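Samples far from the other 3 of their group were looked for among the named neighbour genes, and those found are near the lower limit of RNA detection. Chance flags about 1 in 20 groups of 4. CXCR1 had 0.05076 RPM in DAXX siRNA replicate 1 and 0.08021 RPM in non-targeting replicate 3, both without crotonate. PRR16 had 0.1264 RPM in DAXX siRNA replicate 2 and PRSS56 had 0.171 RPM in non-targeting replicate 4. PRR20G had 0.02343 RPM in DAXX siRNA replicate 4, below its group, in which each library had 1 read or 0.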

How the results depend on the processing

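The number of members called in the averaged crotonate comparison (2) moved with most settings. A replicate block raised it, and the count in non-targeting cells, as given in the last paragraph. It was 0 with limma-voom, with libraries centred on the median region, with quantile scaling and with no trend in the prior variance, 7 among regions with a mean of 20 reads or more, and 249 with 1A and 1B kept apart. It ran from 0 to 337 with each sample left out. In non-targeting cells the count (0) became 8 with 1A and 1B apart, 8 with only the groups compared and 0 to 5 with a sample left out. In DAXX siRNA cells it became 1 with 1A and 1B apart and 0 to 35 with a sample left out. For DAXX siRNA with crotonate it was 0 to 2. The cause was not tested. Where 1 crotonate sample remained, it was assumed to vary like the other groups.

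Median crotonate changes of members turned positive when centred on the median region (0.047 in non-targeting cells, 0.034 in DAXX siRNA cells, 0.040 averaged) and with quantile scaling (0.053, 0.041 and 0.045). With a sample left out they ran from -0.167 to -0.058 in non-targeting cells, from -0.141 to -0.032 in DAXX siRNA cells and from -0.137 to -0.085 averaged. The DAXX siRNA median with crotonate ran from -0.039 to 0.089 and the interaction from -0.039 to 0.092, both across 0.

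The number of members was 16682 when only genes that passed the RNA minimum counted as genes. The median over input was 0.786 with 10 or more input reads and 0.051 with libraries centred. Members near a gene called for DAXX siRNA with crotonate (132) ran from 55 to 212 with a library left out.

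Same-numbered samples had weakly correlated deviations (from 0.004 to 0.095 over all regions in ChIP and from -0.149 to 0.188 in RNA). No RNA comparison had all 4 numbers over 0.1. A correlation cannot show a shift of a whole library, so pairing is not excluded. Replicate 2 had a higher median over input in members than replicate 3 in each group. With crotonate these were 0.93 and 0.82 (DAXX siRNA) and 0.90 and 0.80 (non-targeting). Without it they were 0.99 and 0.90 (DAXX siRNA) and 0.95 and 0.91 (non-targeting). With a replicate block, 25 members were called for crotonate in non-targeting cells and 93 averaged, and 85 members lay near a gene called for DAXX siRNA without crotonate, against 55. At a median of 19 reads per library and member, the median SE of a crotonate change in 1 arm was 0.30, which limits what single members can show.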
